A study of Mus musculus with 3 samples.

Results

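The enzymes that turn glucose into pyruvate, and those that decide what becomes of pyruvate, were followed in RNA sequencing of mouse left ventricle. The 36 genes were taken by symbol from a list of glycolytic enzymes, lactate dehydrogenases, pyruvate dehydrogenase subunits and their regulators, pyruvate carriers and glycerol phosphate dehydrogenases. All 36 were in the deposited tables, which together hold 15503 genes. The rule for membership uses gene names and no measured value. Following the rule that defined the list, the 8 genes named there as having processed pseudogenes (Gapdh, Pgk1, Eno1, Tpi1, Ldha, Pkm, Aldoa and Pgam1) are described apart from the other 28.

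The libraries came from C57BL6J mice, and each of the 3 is a pool of similar amounts of RNA from 3 mice of a genotype. Egln1_floxed is the control, labelled as Egln1 floxed mice and called wild type in the design text. In Egln1_Tie2Cre, a Tie2-driven Cre recombinase removes Egln1, which encodes the oxygen-sensing prolyl hydroxylase PHD2. The library labelled Egln1_Hif2a_Tie2Cre carries the same Cre for Egln1 and for Hif2a, the protein of the Epas1 gene. Age and sex are not stated in the labels. The Tie2 promoter is active in endothelial and blood-forming cells, so cardiomyocytes, which give most ventricular RNA, keep both genes. With 1 pooled library per genotype there is no replicate: no test between genotypes was possible, and each ratio below compares 2 libraries.

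Values are FPKM, a read number scaled by transcript length and by library total, so levels can be compared between genes. Sequencing depth is unknown, because FPKM values do not keep it. A gene counted as higher or lower had an FPKM ratio of at least 1.5 between 2 libraries and averaged 1 FPKM or more across those 2. In whole ventricle, fewer cells of a type and less RNA per cell cannot be told apart.

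Glycolysis splits glucose into pyruvate in the cytosol. Hexokinase traps glucose, phosphofructokinase is the main point of control, and pyruvate kinase closes the path. Pyruvate then becomes lactate through lactate dehydrogenase, or enters mitochondria through a carrier and becomes acetyl-CoA through the pyruvate dehydrogenase complex, which kinases switch off and phosphatases switch on. The adult heart draws most of its energy from fatty acids and uses muscle isoforms of these enzymes. Many glycolytic genes are textbook targets of hypoxia-inducible factors (HIF), which PHD2 marks for degradation when oxygen is present.

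Several of these genes have processed pseudogenes, intron-less copies of an old messenger RNA that sit elsewhere in the genome. A read from such a gene can be placed on its copy, so the copies bear on every value below. The transcripts of all annotated mouse pseudogenes were aligned to the coding transcripts (GENCODE M21, GRCm38), with a match set at 90% identity over at least 300 bases. By that search 13 of the 36 members had a copy. They were the 8 listed genes and 5 more, Gpi1, Ldhb, Pdha1, Pdhb and Mpc1. The other 23 members had none. Stretches of 120 coding bases are shown for 3 pairs in which the copy was highest in Egln1_Tie2Cre, in lower case with differing bases in capitals. Each is the first 120-base coding window with the most differences between the aligned copies.

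Mpc1 (chromosome 17, 8282904 to 8297661, plus strand; transcript bases 130 to 249) and Mpc1-ps (chromosome 12, 110858565 to 110858894, minus strand; bases 1 to 120) were 99.7% identical over 330 bases, with 1 mismatch.
Mpc1: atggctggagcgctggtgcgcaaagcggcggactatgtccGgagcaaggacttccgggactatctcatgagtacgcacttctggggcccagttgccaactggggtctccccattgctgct
Mpc1-ps: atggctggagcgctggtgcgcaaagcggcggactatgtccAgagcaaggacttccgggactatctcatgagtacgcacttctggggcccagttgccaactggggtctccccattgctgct

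Gapdh (chromosome 6, 125161715 to 125166467, minus strand; transcript bases 358 to 477) and Gm5559 (chromosome 5, 95861714 to 95862715, plus strand; bases 266 to 385) were 99.9% identical over 1002 bases, with 1 mismatch.
Gapdh: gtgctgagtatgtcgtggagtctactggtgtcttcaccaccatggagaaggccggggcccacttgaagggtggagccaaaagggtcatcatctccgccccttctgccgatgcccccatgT
Gm5559: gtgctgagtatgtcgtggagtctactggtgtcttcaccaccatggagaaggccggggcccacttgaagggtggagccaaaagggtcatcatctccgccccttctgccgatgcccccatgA

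Pgam1 (chromosome 19, 41911923 to 41918660, plus strand) and Pgam1-ps2 (chromosome 7, 27469771 to 27470535, minus strand) were identical over all 765 bases of the copy, with 0 mismatches. The first 120 coding bases, transcript bases 126 to 245 of Pgam1, stand for both.
Pgam1 and Pgam1-ps2: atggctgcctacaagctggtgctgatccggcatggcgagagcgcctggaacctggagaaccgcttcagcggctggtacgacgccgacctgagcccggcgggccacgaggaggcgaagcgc

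Libraries were checked before the members were read. Egln1 was 129.5 FPKM in the floxed library, 95.7 in Egln1_Tie2Cre and 129.0 in the library labelled Egln1_Hif2a_Tie2Cre. The last was thus close to floxed, although its label names Egln1 deletion. Epas1 was 77.4, 65.0 and 54.5 in the same order. Cardiomyocytes keep both genes, so whole-ventricle levels cannot show whether either was deleted in endothelial and blood-forming cells. Of the 8 cardiomyocyte markers, 7 had values between 1927 and 19883 FPKM in every library, and Ryr2 had 145 and 85.8 with no Egln1_Tie2Cre value listed. Single markers differed in both directions, with Myl2 at 10992, 19883 and 15211 and Myh6 at 6691, 3645 and 4600 in the same order. The summed level of 4 atrial markers was 214, 1986 and 347 in that order, and that of the 3 measured neutrophil markers was 2.15, 55.9 and 10.03. Nppa alone made up 1858 of the atrial sum in Egln1_Tie2Cre. Summed endothelial markers were 345, 391 and 449. The part of these marker differences in the results below was not tested.

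The members are abundant in the ventricle. Their median was 154 FPKM in the floxed library, against 8.38 for the genes at 1 FPKM or more there. In that library 20 of the 36 were at 100 FPKM or more, led by Gapdh at 2058 and Aldoa at 1699.8, and 6 were below 10. Aldoc, the aldolase of brain, was lowest at 0.260, and did not reach a mean of 1 FPKM in any pair, which leaves 35 members in the counts. The median was 60.0 FPKM in Egln1_Tie2Cre and 147 in the library labelled Egln1_Hif2a_Tie2Cre, against 8.67 and 8.17 for the genes at 1 FPKM or more. The Egln1_Tie2Cre median takes in low values of Gapdh, Pgk1, Eno1 and Mpc1 (4.98, 31.6, 26.6 and 20.6 FPKM), which have near-identical copies. For the 22 members past the filter without a matching pseudogene, the median log2 ratio of FPKM + 1 to floxed was 0.0047 there.

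**Figure D1:**
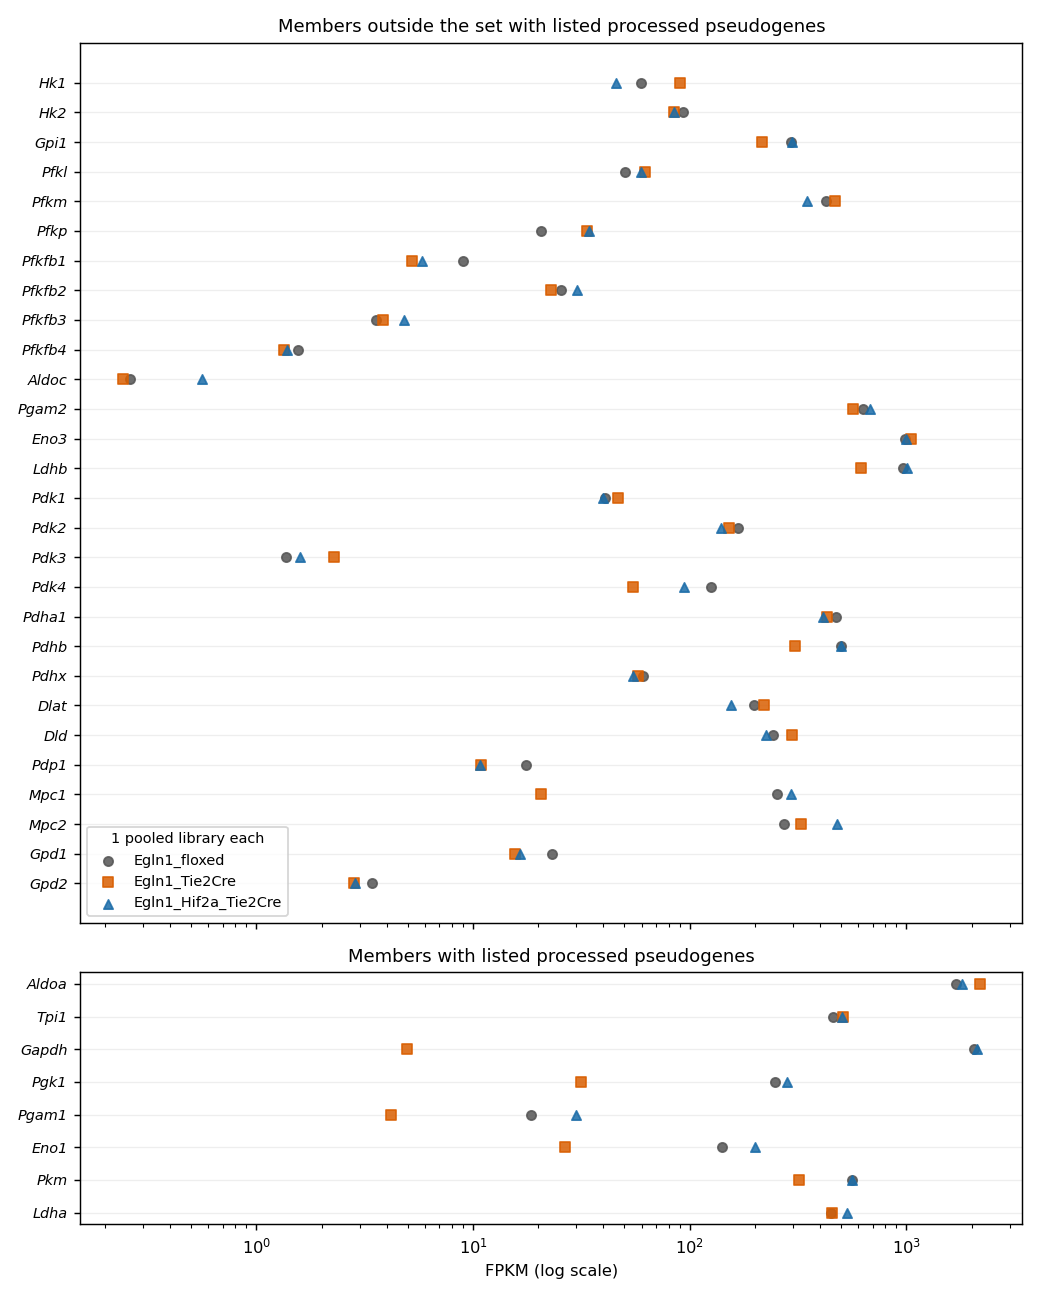
FPKM of the 36 members on a log axis, 1 point per pooled library, with the 28 members outside the listed set above and the 8 with listed processed pseudogenes below. Most points of a gene lie close together, whereas Gapdh, Pgk1, Pgam1, Eno1 and Mpc1 have an Egln1_Tie2Cre point far to the left (Gapdh at 4.98 FPKM against 2058 in the floxed library).

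By label, Egln1_Tie2Cre differs from the floxed library in the Cre and in the loss of Egln1. They are also separate pools, and these differences cannot be told apart. In this comparison 3 members outside the listed set were higher in Egln1_Tie2Cre and 6 lower, of 27 past the filter. Over all 11978 genes compared, 11.7% were higher and 12.4% lower by the same rule. The higher members were Hk1, Pfkp and Pdk3, and the lower ones Pfkfb1, Ldhb, Pdk4, Pdhb, Pdp1 and Mpc1. Of the lower 6, Ldhb, Pdhb and Mpc1 have a matching pseudogene. Among the 22 members past the filter that have none, 3 were higher and 3 lower, and their median log2 ratio of FPKM + 1 was 0.00 against 0.03 for the 9805 coding genes without a match. Of those coding genes, 10.2% were higher and 8.98% were lower by the same rule.

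In the library labelled Egln1_Hif2a_Tie2Cre against the floxed library, 2 of the 27 members were higher, Pfkp and Mpc2, and 2 lower, Pfkfb1 and Pdp1. The background was 6.73% higher and 5.74% lower over 11888 genes. None of these 4 members has a matching pseudogene, and among coding genes without one 5.73% were higher and 5.55% lower. The median log2 ratio of the 27 was -0.10, and that of all genes compared was -0.0038. Between the 2 Cre libraries, 4 of 27 were higher in the library labelled Egln1_Hif2a_Tie2Cre (Ldhb, Pdk4, Pdhb and Mpc1) and 1 lower (Hk1), against 13.1% and 12.3% of 11999 genes. Of the 22 without a matching pseudogene, 1 was higher (Pdk4) and 1 lower (Hk1), beside 9.21% and 11.2% of coding genes without a match. Each library enters 2 of the comparisons, so a low or high value counts in both.

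At the entry to glycolysis the hexokinases differed in pattern. Hk1, the hexokinase found in most tissues, was 59.7 FPKM in the floxed library, 90.3 in Egln1_Tie2Cre and 45.7 in the library labelled Egln1_Hif2a_Tie2Cre. Egln1_Tie2Cre was thus 1.51-fold above floxed, just past the threshold, and 1.97-fold above the library labelled Egln1_Hif2a_Tie2Cre. Its ratio to floxed no longer passed when ratios were centred on the median of all genes. Exons of Hk1 overlap those of an antisense gene, Hk1os, so reads of both cannot be told apart if strand was not used. Hk2, the insulin-responsive hexokinase of heart and muscle, was 92.7, 84.6 and 85.1 in the same order, within 1.10-fold of each other.

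Hk1 therefore made up 39.2% of the summed Hk1 and Hk2 level in the floxed library, 51.6% in Egln1_Tie2Cre and 34.9% in the library labelled Egln1_Hif2a_Tie2Cre. Hk1 was above Hk2 in Egln1_Tie2Cre and below it elsewhere. Gpi1, the isomerase of glucose phosphate, was 295, 216 and 297 FPKM, which is 1.36-fold lower in Egln1_Tie2Cre and short of the threshold. Gpi1 is among the 13 members with a matching pseudogene, so its value in Egln1_Tie2Cre is uncertain.

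Among the phosphofructokinases, Pfkp was the single member of the 35 at least 1.5-fold above floxed in both Cre libraries, comparisons that share the floxed library. Pfkp, the platelet-type subunit, was 20.6 FPKM in the floxed library, 33.5 in Egln1_Tie2Cre and 34.4 in the library labelled Egln1_Hif2a_Tie2Cre, or 1.63-fold and 1.67-fold higher. The Cre libraries lay within 1.03-fold of each other. Exons of Pfkp overlap those of Pitrm1 on the opposite strand by up to 748 bases, which makes its values uncertain. Pitrm1 was 15.4, 19.7 and 12.4, below floxed in the library labelled Egln1_Hif2a_Tie2Cre, where Pfkp was highest.

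Pfkm, the muscle subunit, stayed the most abundant at 425, 470.0 and 347 FPKM. Pfkl, the liver-type subunit, was 50.1, 62.3 and 59.5, or 1.24-fold and 1.19-fold above floxed. As shares of the summed phosphofructokinase level, Pfkm took 85.7%, 83.1% and 78.7%, and Pfkp 4.16%, 5.92% and 7.80%. The Pfkm share was smaller in both Cre libraries than in floxed, and the ratio of Pfkm to Pfkp was 20.6, 14.02 and 10.09.

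The Pfkfb enzymes make and remove the sugar bisphosphate that activates phosphofructokinase. Pfkfb1, known from liver and skeletal muscle, was 9.03, 5.22 and 5.80 FPKM, and so 1.73-fold and 1.56-fold lower than floxed in the Cre libraries. It shares exon sequence with Apex2 on the opposite strand, which was 3.52, 2.39 and 2.92. Apex2 was below floxed in the same libraries, and reads of the 2 genes cannot be told apart if strand was not used.

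Pfkfb2, the heart isoform, was 25.5, 22.99 and 30.1 FPKM, and its exons overlap those of Gm29427 on the same strand. It took 64.3% of the family's level in the floxed library, 68.8% in Egln1_Tie2Cre and 71.5% in the library labelled Egln1_Hif2a_Tie2Cre. Pfkfb3 and Pfkfb4 are the isoforms best known as HIF targets, and both were low. Pfkfb3 was 3.56, 3.85 and 4.81, at most 1.35-fold above floxed, and Pfkfb4 was 1.55, 1.35 and 1.39.

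**Figure D2:**
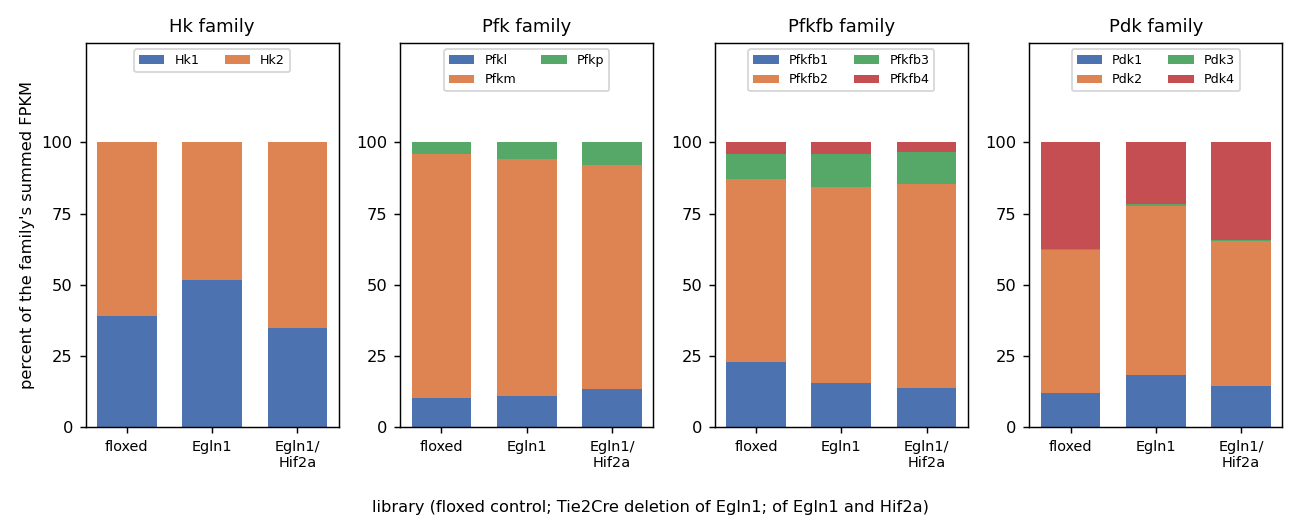
Percent of each family's summed FPKM (vertical axis) taken by its members in the 3 pooled libraries (horizontal axis). The Hk1 share is largest in Egln1_Tie2Cre (51.6%), the Pfkp share is larger in both Cre libraries than in floxed (5.92% and 7.80% against 4.16%), and the Pdk4 share is smallest in Egln1_Tie2Cre (21.5%).

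In lower glycolysis the muscle isoforms without a pseudogene were steady. Eno3, the muscle enolase, was 987 FPKM in the floxed library, 1052 in Egln1_Tie2Cre and 992 in the library labelled Egln1_Hif2a_Tie2Cre, within 1.07-fold. Pgam2, the muscle phosphoglycerate mutase, was 630.2, 565 and 678, within 1.20-fold. Each held most of its pair's level: Eno3 took 87.5% of the summed Eno1 and Eno3 level in floxed, and Pgam2 97.2% of Pgam1 and Pgam2.

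Lactate dehydrogenase has a heart subunit, Ldhb, and a muscle subunit, Ldha. Ldhb was 966, 618 and 1006 FPKM, 1.56-fold lower than floxed in Egln1_Tie2Cre and 1.04-fold higher in the library labelled Egln1_Hif2a_Tie2Cre. Its closest pseudogene is 98.0% identical and has no value in the tables. Ldha, a textbook HIF target, was 449, 454 and 533, or 1.01-fold and 1.19-fold above floxed. The ratio of Ldhb to Ldha was 2.15, 1.36 and 1.89, lowest in Egln1_Tie2Cre, where Ldhb was the term that differed.

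The pyruvate dehydrogenase kinases, which inhibit the complex, gave the largest ratio among the 22 members past the filter without a matching pseudogene. Pdk4, a kinase that rises in fasting and with fatty acid use, was 125 FPKM in the floxed library, 55.03 in Egln1_Tie2Cre and 93.9 in the library labelled Egln1_Hif2a_Tie2Cre. It was 2.27-fold lower than floxed in Egln1_Tie2Cre and 1.33-fold lower in the library labelled Egln1_Hif2a_Tie2Cre, with no exon overlap annotated. In the authors' deposited table its q-value for Egln1_Tie2Cre against floxed, which compares 2 libraries and not 2 genotypes, was 0.5555.

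Pdk1, the kinase best known as a HIF target, was 40.5, 46.9 and 39.8 FPKM, within 1.18-fold. Pdk2, the most abundant in every library, was 167, 152 and 139. Pdk3 was 1.36, 2.28 and 1.58, so its 1.67-fold ratio in Egln1_Tie2Cre rests on a low level. The Pdk4 share of the summed kinase level was 37.5%, 21.5% and 34.2%, while that of Pdk1 was 12.1%, 18.3% and 14.5%.

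The phosphatases act against these kinases, and their values were lower in both Cre libraries. Pdp1, the catalytic subunit of muscle, was 17.6 FPKM in floxed, 10.93 in Egln1_Tie2Cre and 10.8 in the library labelled Egln1_Hif2a_Tie2Cre, or 1.61-fold and 1.63-fold lower. Pdp2, a related phosphatase outside the 36, was 8.53, 3.12 and 3.85, or 2.73-fold and 2.22-fold lower. Pdpr, the regulatory subunit, was 29.1, 22.3 and 11.3, short of the threshold in Egln1_Tie2Cre and 2.58-fold lower in the library labelled Egln1_Hif2a_Tie2Cre. None of the 3 has a matching pseudogene, although Pdpr shares exon sequence with a noncoding transcript.

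Subunits of the pyruvate dehydrogenase complex varied little, apart from Pdhb. Pdha1, of the first enzyme, was 473, 431 and 412 FPKM, within 1.15-fold, and its exons overlap those of Map3k15, itself 0.292, 13.6 and 0.202. Pdhb, its partner, was 499, 306 and 502, and 1.63-fold lower in Egln1_Tie2Cre. The 2 proteins form a single enzyme, and the 2 transcripts had similar levels in floxed. Pdhb is the subunit with a closer pseudogene, at 97.03% identity against 90.07% for Pdha1, and neither pseudogene has a value in the tables.

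Dlat, the acetyl transfer subunit, was 197, 222 and 155 FPKM, and Dld, the subunit that reoxidises it, was 243, 297 and 225. Pdhx, the binding subunit, was 61.1, 57.7 and 54.9. All 3 lack a matching pseudogene and stayed short of the threshold in every comparison, the widest being Dlat at 1.43-fold between the Cre libraries.

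The 2 subunits of the mitochondrial pyruvate carrier, which work as a pair, went apart. Mpc2 was 274 FPKM in the floxed library, 325 in Egln1_Tie2Cre and 478 in the library labelled Egln1_Hif2a_Tie2Cre, or 1.19-fold and 1.75-fold above floxed. Mpc1 was 254, 20.6 and 293, which is 12.3-fold lower than floxed in Egln1_Tie2Cre and 1.16-fold higher in the library labelled Egln1_Hif2a_Tie2Cre. The ratio of Mpc2 to Mpc1 was 1.08, 15.8 and 1.63.

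Mpc1-ps, the near-identical copy printed above, was 1.05 FPKM in floxed, 330.1 in Egln1_Tie2Cre and 0.521 in the library labelled Egln1_Hif2a_Tie2Cre. The summed FPKM of parent and copy was 255, 351 and 294. FPKM is scaled by length and the copy is shorter than the Mpc1 transcript, so this is not a sum of reads. Whether their reads together were fewer in Egln1_Tie2Cre cannot be read from it. Mpc1 is not among the 8 listed genes, but its value in Egln1_Tie2Cre is likewise uncertain. Whether reads of Mpc1 were placed on the copy was not tested.

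The glycerol phosphate dehydrogenases move reducing power from cytosol to mitochondria. Gpd1, the cytosolic enzyme, was 23.2, 15.7 and 16.5 FPKM, 1.48-fold and 1.41-fold below floxed, just short of the threshold. Gpd2, the mitochondrial enzyme, was 3.43, 2.81 and 2.86. Both were below floxed in both Cre libraries, and both overlap a noncoding gene on the opposite strand.

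**Figure D3:**
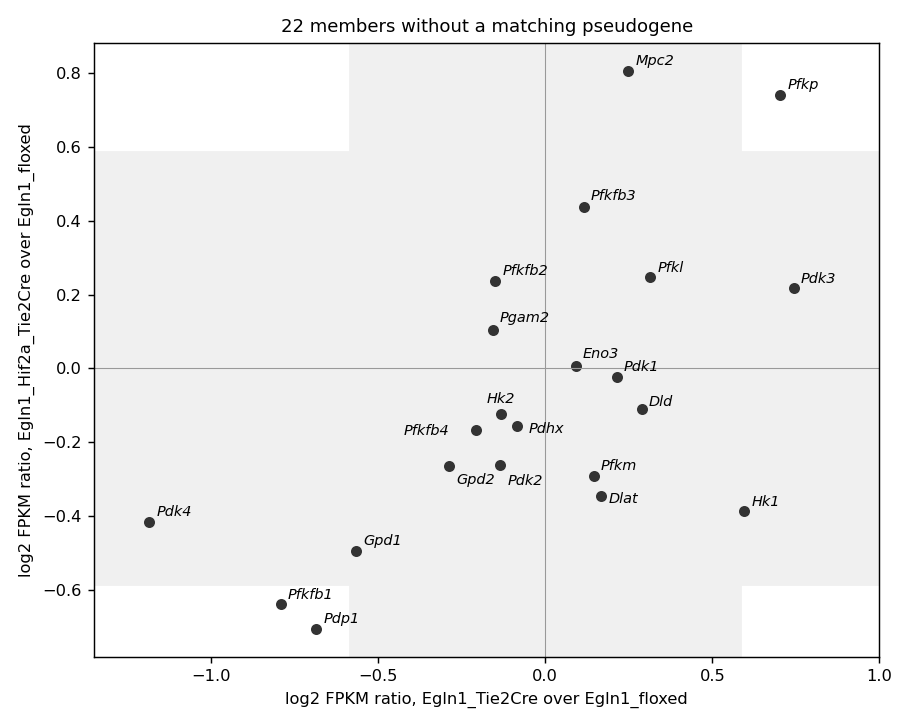
Log2 FPKM ratio of Egln1_Tie2Cre over floxed (horizontal) and of the library labelled Egln1_Hif2a_Tie2Cre over floxed (vertical) for the 22 members past the filter without a matching pseudogene; the grey bands mark ratios within 1.5-fold on an axis. Pfkp lies alone in the upper right corner (1.63-fold and 1.67-fold), Pfkfb1 and Pdp1 lie in the lower left, and the axes share the floxed library.

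The 8 listed genes divided in Egln1_Tie2Cre. Of these 8, 5 were lower than floxed and 0 higher, and their median log2 ratio of FPKM + 1 was -1.36 against 0.02 for all genes. Among coding genes with a matching pseudogene, 32.6% were lower and 6.11% higher in the same comparison. Annotated pseudogenes themselves were 77.7% higher and 12.3% lower there, of 260 past the filter. Between the Cre libraries, 5 of the 8 were higher in the library labelled Egln1_Hif2a_Tie2Cre and 0 lower, beside 35% and 5.33% of coding genes with a match and 14% and 78.3% of pseudogenes. In the library labelled Egln1_Hif2a_Tie2Cre against floxed, 1 of the 8 was higher, 0 were lower and the median was 0.16, beside 7.54% higher and 2.3% lower of coding genes with a match and 20.4% and 24.8% of pseudogenes.

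Gapdh, which oxidises triose phosphate and is often used as a reference gene, was 2058 FPKM in floxed, 4.98 in Egln1_Tie2Cre and 2110.4 in the library labelled Egln1_Hif2a_Tie2Cre. By the search it has 182 matching pseudogenes, of which 27 have a value in the tables. These 27 sum to 13.5, 20.4 and 15.2 FPKM in the order above, and the highest in Egln1_Tie2Cre was Gm5559 at 10.3. The summed FPKM of Gapdh and these 27 copies was 25.4 in Egln1_Tie2Cre against 2071 in floxed. Copies without a value are not counted there, among them Gm10359 and Gm12671, each 100% identical.

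Pgk1, the first ATP-forming enzyme of the path, was 247, 31.6 and 282 FPKM, and Pgk1-rs7, the only one of its 4 matching pseudogenes with a value in the tables, was 0.0855, 1.11 and 0.0457. Pgk1-rs7 was highest in Egln1_Tie2Cre, and its sum with Pgk1 was 32.7 there and 247 in floxed, with the other copies not counted. Pgam1 was 18.5, 4.17 and 29.7, with Pgam1-ps2, the 1 of its 3 matching pseudogenes that has a value, at 0.316, 23.7 and 0.0622. Their summed FPKM was 18.8, 27.9 and 29.8. The copy is shorter than the Pgam1 transcript, so this sum does not show whether their reads together were more or fewer than in floxed. Eno1, the widely expressed enolase, was 141, 26.6 and 199.7 FPKM, and none of its 7 matching pseudogenes has a value in the tables.

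**Figure D4:**
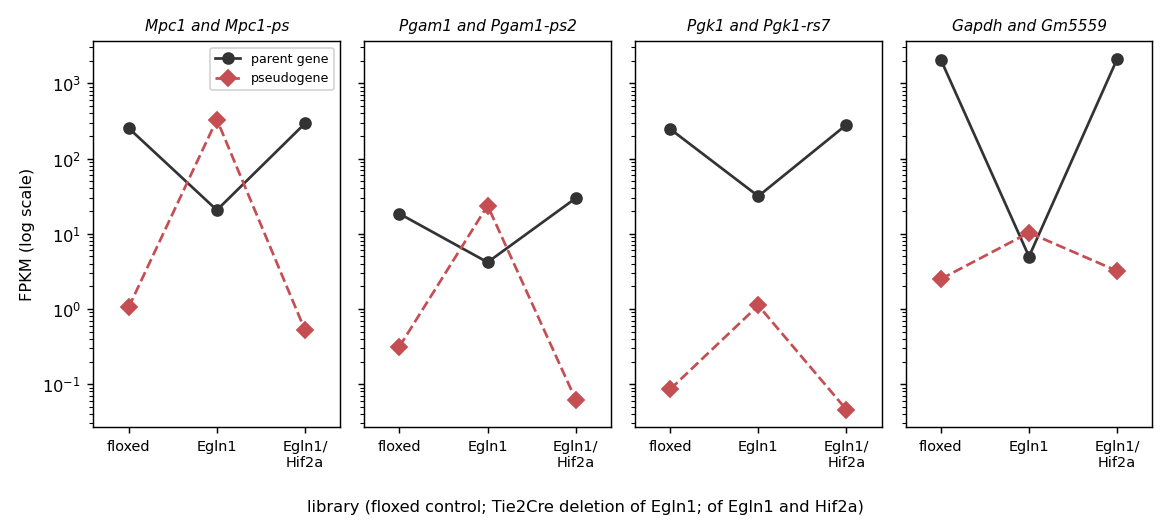
FPKM on a log axis of 4 members (solid line, circles) and of a matching pseudogene (dashed line, diamonds) in the 3 pooled libraries. Each parent is lowest and each copy highest in Egln1_Tie2Cre, and for Mpc1, Pgam1 and Gapdh the copy exceeds the parent there (330.1 against 20.6 FPKM for Mpc1).

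Pkm, pyruvate kinase of muscle, was 561, 319 and 559 FPKM, 1.76-fold lower in Egln1_Tie2Cre. Exons of Pkm overlap those of Gm49759 on the same strand by up to 454 bases, and Gm49759 has no value listed. The other 3 listed genes did not reach the threshold in any comparison. Aldoa, the muscle aldolase, was 1699.8, 2179.9 and 1800.4 FPKM, and Tpi1, which interconverts the triose phosphates, was 461, 512 and 504. With Ldha given above, these 3 were at or above floxed in Egln1_Tie2Cre by 1.28-fold, 1.11-fold and 1.01-fold.

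How close the copy is went with how low the parent was. The 5 members with a pseudogene at least 99% identical (Gapdh, Pgk1, Pgam1, Eno1 and Mpc1) were between 4.42-fold and 414-fold lower than floxed in Egln1_Tie2Cre. They were also the lowest 5 of the 35. The 4 members with a closest copy of 97% to 99% (Gpi1, Tpi1, Ldhb and Pdhb) had ratios from 0.614 to 1.11, and Ldha, at 95.9%, had 1.01. The last 3, from 90% to just under 95% (Pkm, Aldoa and Pdha1), had 0.568 to 1.28. Within these lower ranges the order did not hold, since Tpi1 was above floxed and Pkm well below it.

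All coding genes with a copy, these 13 included, gave the following background in Egln1_Tie2Cre. The share that was lower than floxed was 9.62% of 520 genes whose closest copy was under 95% identical, and 13% of 238 genes from 95% to 97%. It was 40.3% of 273 genes from 97% to 99%, and 74.9% of 343 genes at 99% or more. In the library labelled Egln1_Hif2a_Tie2Cre, 2.02% of 346 genes at 99% or more were lower than floxed and 13.6% were higher, while the share higher was between 5.32% and 6.2% in the ranges below 99%. Low values in Egln1_Tie2Cre were thus common among coding genes with near-identical copies, and their cause was not tested.

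In the library labelled Egln1_Hif2a_Tie2Cre the same 5 genes were between 1.03-fold and 1.61-fold above floxed, with Pgam1 at 1.61-fold and Eno1 at 1.41-fold. In the authors' deposited table, 4 of the 36 members had a q-value of at most 0.05 for Egln1_Tie2Cre against floxed (Gapdh, Pgk1 and Mpc1 at 0.0112, Eno1 at 0.021), beside 0.465% of all 14827 genes in it. In the authors' deposited table between the Cre libraries 4 members passed, beside 0.571% of 14894 genes, and in that of the library labelled Egln1_Hif2a_Tie2Cre against floxed 0 passed, beside 0.0135% of 14843. All of the members that passed have a copy at least 99% identical, and the authors' q-value compares 2 libraries.

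**Figure D5:**
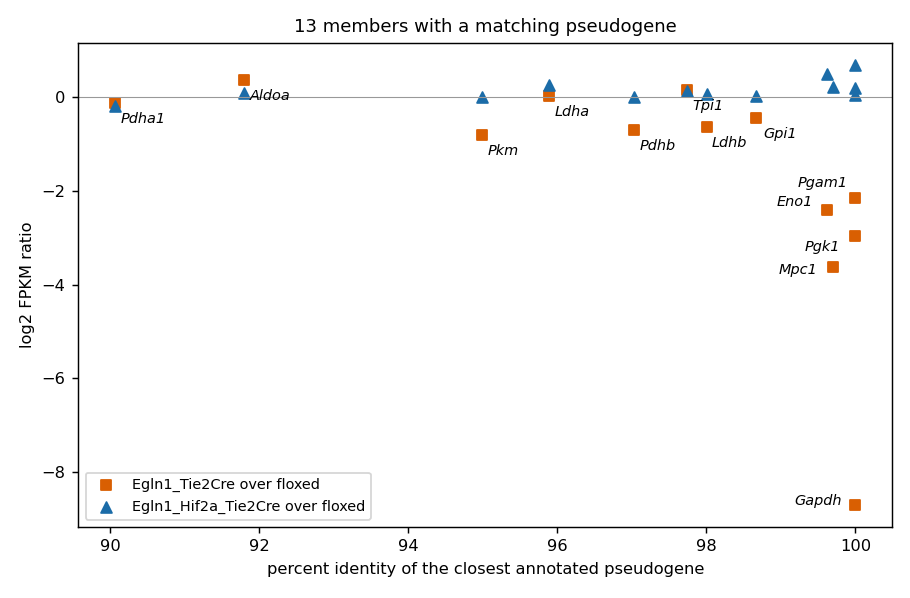
Log2 FPKM ratio to the floxed library (vertical) of the 13 members with a matching pseudogene, by the percent identity of the closest one (horizontal); squares are Egln1_Tie2Cre and triangles the library labelled Egln1_Hif2a_Tie2Cre. The 5 squares at 99% or more lie lowest (4.42-fold to 414-fold lower), and the triangles stay near 0.

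Neighbouring steps were read from a list of 50 related genes of glucose and lactate transport, gluconeogenesis, the pentose phosphate path, glycogen and the malate-aspartate shuttle, of which 46 were in the tables. In Egln1_Tie2Cre against floxed, 7 were higher and 5 lower of 41 past the filter, beside 11.7% and 12.4% of all genes. Without genes that have a matching pseudogene, 6 were higher and 2 lower of 35, beside 10.2% and 8.98% of such coding genes, with medians of 0.14 and 0.03 on the log2 scale. In the library labelled Egln1_Hif2a_Tie2Cre against floxed, 3 were higher and 3 lower of 35, beside 5.73% and 5.55%, and the medians were -0.13 and -0.02.

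Slc16a3, the exporter of lactate, was 0.875, 7.43 and 18.7, or 8.48-fold and 21.4-fold above floxed, the largest ratios of the list. Both ratios rest on a low floxed level, below 1 FPKM. Slc2a1, the widely expressed glucose transporter, was 8.93, 18.1 and 13.3, or 2.03-fold higher in Egln1_Tie2Cre and 1.49-fold in the library labelled Egln1_Hif2a_Tie2Cre. Slc2a1 shares exon sequence with an antisense gene, Gm12868. Slc2a4, the insulin-responsive transporter of the cardiomyocyte, was 189.8, 174 and 154, short of the threshold throughout. Slc16a3 and Slc2a1 thus differed more from floxed than Hk2, Pfkm, Eno3 or Pgam2, abundant enzymes of the path without a copy.

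Fbp2, the muscle enzyme that reverses the phosphofructokinase step, was 19.2, 9.70 and 15.8 FPKM, 1.98-fold lower in Egln1_Tie2Cre. Me1, Got2 and Gpt2 were 2.72-fold, 2.65-fold and 2.08-fold lower there, but all 3 have a matching pseudogene and are uncertain. Acyp1, an acylphosphatase, was 15.96, 17.1 and 26.4, or 1.65-fold higher in the library labelled Egln1_Hif2a_Tie2Cre. Slc25a13, a mitochondrial aspartate carrier, was 61.6, 52.7 and 40.3, or 1.53-fold lower there. Me2, Pgm1 and G6pdx were 1.60-fold, 1.53-fold and 1.58-fold higher in Egln1_Tie2Cre at levels of at most 6.30 FPKM, and G6pdx shares exon sequence with another coding gene. Pygl was 1.74, 4.66 and 6.58 and has a matching pseudogene.

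Promoters were searched for the core letters that HIF binds, ACGTG and GCGTG, on both strands, in windows of 250 bases before to 50 after the start (RefSeq, GRCm38.p6). Of the 36 members, 34 had a window in the table, with 55 windows in all. Of these windows, 36.4% held ACGTG and 70.9% held either motif, against 19.6% and 43.8% of all 32851 windows. Some windows of a gene overlap, so the same letters can count more than once. By gene, 16 of the 34 members held ACGTG in at least 1 window and 29 held either motif. The shares of all 27025 gene symbols were 21.8% and 46.7%, and a gene with more windows has more chances of a match. A match is a description of letters and not a binding site. The 250 bases before the start are shown for Pfkp, the member higher in both Cre libraries, and for 1 of the 2 starts listed for Ldha, a textbook HIF target with close to equal values, with motif letters in capitals. The palindrome CACGTG counts as ACGTG on either strand, so its 2 matches overlap.
Pfkp, chr13:6648772-6649021, minus strand: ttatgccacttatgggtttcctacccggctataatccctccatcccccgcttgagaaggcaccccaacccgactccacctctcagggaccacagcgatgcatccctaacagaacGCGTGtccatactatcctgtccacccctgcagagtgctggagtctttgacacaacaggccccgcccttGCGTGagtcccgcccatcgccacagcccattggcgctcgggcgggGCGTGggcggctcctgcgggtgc
Ldha, chr7:46845554-46845803, plus strand: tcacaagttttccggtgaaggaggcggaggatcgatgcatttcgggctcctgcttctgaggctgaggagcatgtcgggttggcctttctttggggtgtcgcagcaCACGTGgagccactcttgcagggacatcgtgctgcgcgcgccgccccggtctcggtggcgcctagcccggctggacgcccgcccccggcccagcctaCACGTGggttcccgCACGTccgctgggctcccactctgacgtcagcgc
The Pfkp stretch held GCGTG 3 times and ACGTG 0 times, and the Ldha stretch held ACGTG 5 times, counting both strands, and GCGTG 0 times. The full window of that Ldha start, which runs to 50 bases after it, held ACGTG 5 times and GCGTG 2 times. The full window of the other Ldha start, not shown, held ACGTG 0 times and GCGTG 2 times.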

How the data were processed

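RNA was measured in 3 pooled libraries, 1 per genotype. The submitters' processing notes name TopHat2 and Cuffdiff. The sources used here do not give versions, genome build, annotation or strandedness. Per the file headers, the authors deposited 3 pairwise tables with FPKM per library, a fold ratio and a q-value (p-value adjusted by the authors) per gene. Columns were assigned from the library titles in the table names. A library's values in its 2 tables were identical for 14368 of 14369, 14489 of 14489 and 14367 of 14367 shared genes. The depth behind each value is unknown.

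Plain FPKM ratios were counted where the 2 libraries averaged 1 FPKM or more. Medians use log2(FPKM + 1), which understates differences of low genes. With 1 library per genotype there is no test, and pooling hides the spread between mice. Counting of ratios was tested on simulated data. Pseudogenes were matched with BLAST 2.17.0 (megablast, same strand) and exon overlaps with bedtools 2.31.1, both on GENCODE M21; 204 of 15503 genes were not in that release. Python 3.11.15 and pandas 2.3.3 were used. All 36 members are named, with related genes at least 1.5-fold apart, except an item that is not reported here. The members and lists were chosen with earlier results of these data known. Alternatives were another pseudocount (0.1), a filter of 5 FPKM, none at all, centring on the median of all genes and a 2-fold threshold; leaving out members with a matching pseudogene or an exon overlap was added after seeing the data.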

Additional observations from a re-analysis of the deposited data

How the results depend on the processing

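Of 90 values recomputed, 74 stayed close, meaning a count within 1.5 times the reported one or a median within 0.1 of it. Those under centring on the median of all genes, a filter of 5 FPKM and no filter all did, but not all were equal. In Egln1_Tie2Cre against floxed the 28 members had 2 higher and 7 lower with centring and 2 higher with the 5 FPKM filter. With no filter 5 were higher between the Cre libraries and 3 in the library labelled Egln1_Hif2a_Tie2Cre against floxed. With a 2-fold threshold the 28 members outside the listed set had 0 higher and 2 lower in Egln1_Tie2Cre against floxed, 1 higher and 0 lower between the Cre libraries, and, for the library labelled Egln1_Hif2a_Tie2Cre against floxed, 0 higher and 0 lower, where the listed set had 0 higher. A pseudocount of 0.1 moved the listed set's median to -1.47 in Egln1_Tie2Cre against floxed and to 1.81 between the Cre libraries.

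The next alternatives were added after seeing the data. Without members that match a pseudogene, 3 were lower in Egln1_Tie2Cre against floxed, the median changed sign from -0.13 to 0.0047, and 1 was higher between the Cre libraries. The median between the Cre libraries, 0.02, is near 0 and became -0.0040 without those members and -0.02 without members with an exon overlap. Without members whose exons overlap another gene, 1 was higher in Egln1_Tie2Cre, 0 were lower between the Cre libraries, and the library labelled Egln1_Hif2a_Tie2Cre had 1 higher and 1 lower against floxed. No paired analysis was possible because each genotype has a single pooled library. Depth is unknown, so members near 1 FPKM (Aldoc, Pdk3, Pfkfb4) have no stated precision.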
